A study of Rattus norvegicus with 7 samples.

Results

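The SWI/SNF, ISWI, CHD and INO80 chromatin remodelers and the Mediator subunits were followed in NR8383 cells, a rat alveolar macrophage line derived by lavage from the lung of a normal rat, after 4 h with zinc oxide nanoparticles (ZnO NPs). Members were matched by gene symbol (Smarca to Smarce, Arid1, Arid2, Chd1 to Chd9, Med followed by a number, Ino80, Pbrm1, Brd7 and Brd9). This choice was made with earlier results of these data known. They made up 62 of the 36174 gene names on the arrays, with 91 of the 45598 probes. The 4 control cultures were kept without particles and the 3 ZnO cultures received NM110 ZnO NPs at 2 µg/mL according to the sample labels, the study's methods giving another dose; both groups were kept without serum during the exposure. Each culture was read on 1 single-colour Agilent array, and all 7 arrays were on 1 slide scanned once. By their array numbers, controls lay in one line of the slide and ZnO arrays in the other, so that exposure and line cannot be told apart. RNA came from whole cultures, so that fewer cells with a transcript and less transcript per cell cannot be told apart.

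SWI/SNF complexes use an ATPase subunit to slide or eject nucleosomes and thereby open promoters and enhancers, and in macrophages they are known for the induction of inflammatory genes. ISWI, CHD and INO80 enzymes belong to the same superfamily of ATPases, and they space nucleosomes, work with histone deacetylases or exchange histone variants. Mediator is a large complex that links transcription factors on enhancers to RNA polymerase II. Its head and middle contact the polymerase, its tail receives most activators, and a detachable kinase module tunes the whole.

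Values are log2 intensities relative to the 75th percentile of the same array, so that 0 is the percentile itself. That percentile ranged over 958 to 1489 intensity units in the control group and over 980 to 1603 in the ZnO group, with 51.7% to 56.0% and 52.9% to 54.3% of spots well above background. Testing required a probe to exceed background clearly on every array of 1 group or both, and a gene is represented by its brightest tested probe. By this measure 56 member genes with 78 probes were tested, among 16180 genes and 20065 probes in all. Both Chd7 probes and those of Smarca1, Smarcd3, Med12l, Med28 and Med14-ps1 were not well above background on any array, and these 6 genes have no value here. No probe carried the gene name Smarcc2 or Arid1b, so these genes were not analysed here. Of 11 macrophage markers on the array 10 were well above background on all 7 arrays, the exception being Marco, whereas 0 of 5 lymphocyte and 0 of 6 epithelial markers were. Among markers of other cells, 3 of 4 endothelial (Cdh5, Pecam1, Vwf), 2 of 5 fibroblast (Col1a2, Dcn) and 1 of 5 neutrophil genes (Mpo) were also above background on all arrays, and their part in the results was not tested. The exposure itself was visible in the zinc-binding metallothionein Mt2A, with a log2 fold change of 5.83 (SE 0.13; limma adjusted p = 3.85e-06), and in the zinc exporter Slc30a1, with 1.37 (SE 0.09; limma adjusted p = 0.00278).

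No transcript of a remodeler or Mediator subunit changed detectably after 4 h. At an adjusted p under 0.05 (limma with Benjamini-Hochberg adjustment over all 20065 probes), 0 of the 56 member genes were called, where 10 of 16180 genes (0.0618%) were called on the whole array. The smallest adjusted p of a member gene was 0.823. At an unadjusted p under 0.05, 1 member gene was called, Ino80, against 950 of 16180 genes (5.87%) on the array. In 4 member genes all ZnO arrays lay on the same side of all control arrays, Brd9, Ino80 and Smarce1 above and Med23 below, against 1207 genes (7.46%) on the array. Both counts thus lay near or under the background. The log2 fold changes (ZnO minus control) ran from -0.42 for Chd5 to 0.20 for Ino80, with 27 genes above 0 and 29 below, and their median of -0.00 was that of all genes.

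The precision of this negative result can be stated. For 53 of the 56 member genes, the 95% confidence interval of the fold change lay wholly within 1.5-fold in either direction, the fold threshold set in the study, whereas 13397 of 16180 genes (82.8%) were so bounded on the whole array. The 3 members without such a bound were Chd5, Ino80c and Med22. The typical member interval reached 0.20 on the log2 scale to either side of its estimate, a factor of 1.15, against 0.24 for all genes. The median SD between arrays was 0.09 in the controls and 0.11 in the ZnO group for members, and 0.13 in each group for all genes. These bounds are relative to the array's 75th percentile. When arrays were centred on the spike-in RNA instead, the median of all probes moved to 0.14 and 0 member intervals stayed within 1.5-fold. The intervals also widened: Ino80 stood at 0.35 with a limma p of 0.499, against 0.20 with a limma p of 0.0341 under percentile scaling.

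**Figure D1:**
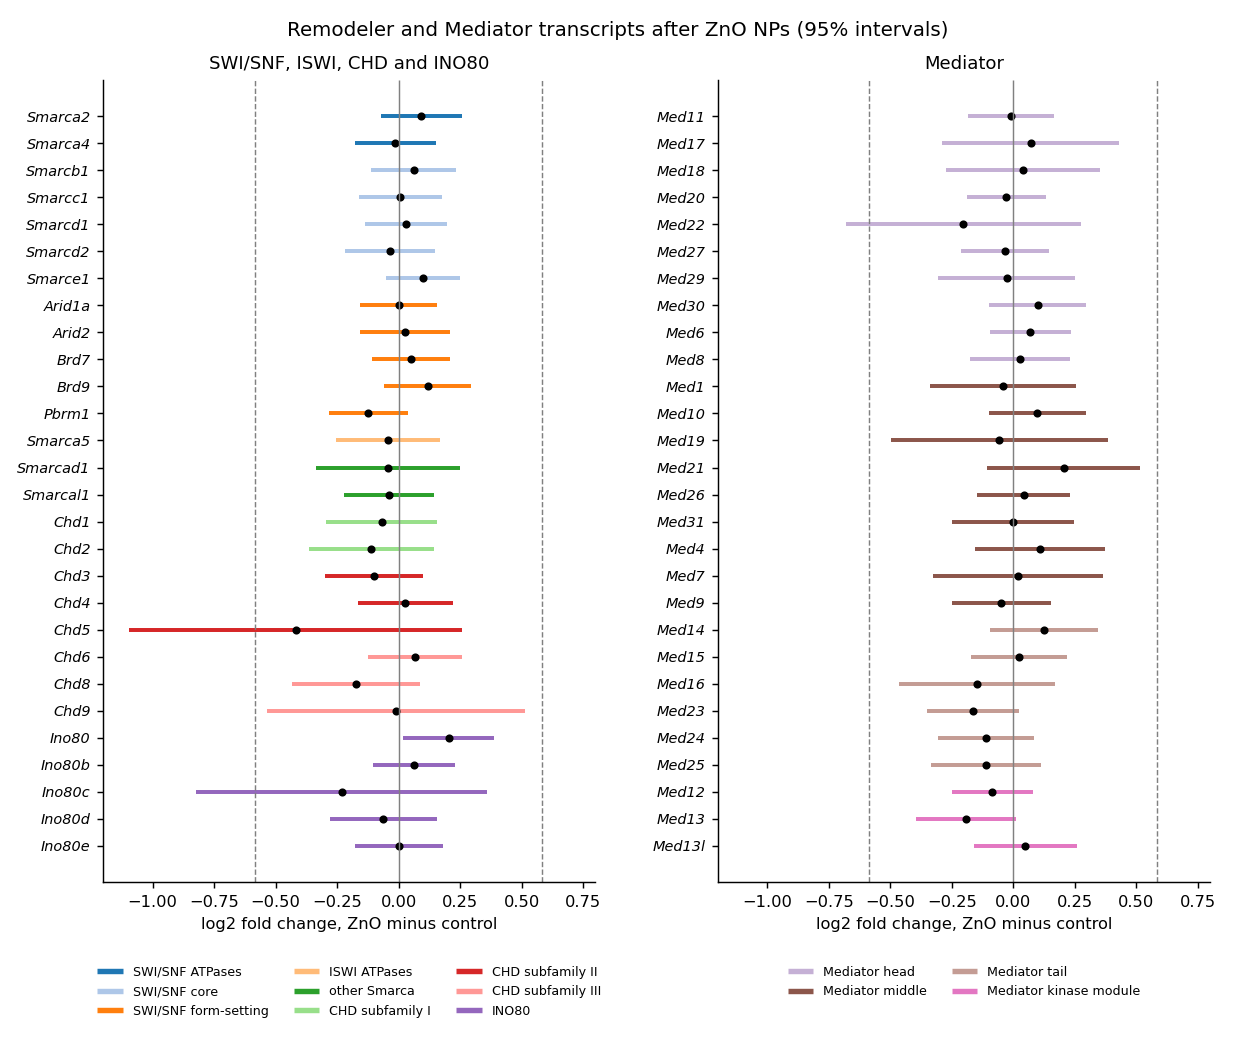
Log2 fold change (ZnO minus control, x axis) of the 56 tested member genes, each by its brightest tested probe: points are estimates, bars 95% confidence intervals coloured by role, and dashed lines 1.5-fold either way. The Ino80 interval alone lies wholly on one side of 0, and the Chd5, Ino80c and Med22 intervals cross a dashed line.

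The SWI/SNF estimates were small. Of 12 tested genes of 13 on the array, 9 lay above 0 and 3 below, where 7837 of all 16180 genes lay above 0 and 8343 below, the median log2 fold change was 0.03 and the range was -0.12 to 0.12. Smarca4 encodes BRG1, one of the alternative catalytic ATPases of the complex. Its log2 values were 3.05, 2.99, 2.99 and 3.12 on the control arrays and 3.05, 2.94 and 3.07 on the ZnO arrays. The ZnO values fell within or close to the control range, and the log2 fold change was -0.01 (SE 0.07; 95% interval -0.18 to 0.15). Smarca2, which encodes the other ATPase BRM, had control values of 0.04, 0.10, -0.07 and 0.01 and ZnO values of 0.11, 0.07 and 0.17. Its log2 fold change of 0.09 (SE 0.07; 95% interval -0.07 to 0.26) came with overlapping groups, and its other probes gave 0.02 and 0.16.

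The shared core of SWI/SNF, which holds the complex together, was tested through 5 genes with log2 fold changes between -0.03 and 0.10. Smarce1, the core subunit with an HMG box, had the largest. Its brightest probe read 1.91, 1.87, 1.79 and 1.87 in the controls and 1.93, 1.99 and 1.97 after ZnO. The lowest ZnO value was just above the highest control value, the log2 fold change being 0.10 (SE 0.06; limma adjusted p = 0.932). The 3 other probes of Smarce1 did not share that separation, with log2 fold changes of 0.01, 0.03 and -0.18. The array design places one of them on chromosome 19 and the rest on chromosome 10, and that probe had 55 of 58 aligned bases in common with its neighbour. Whether it reads the same transcript was not tested.

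The subunits that set the form of SWI/SNF, meaning BAF, PBAF or the non-canonical complex, were tested through 5 genes with log2 fold changes of -0.12 to 0.12. Pbrm1, the bromodomain subunit of PBAF, lay at the lower end. Its control values were 0.90, 0.87, 0.92 and 0.76 and its ZnO values 0.76, 0.72 and 0.73. Only the highest ZnO value reached into the control range, and the log2 fold change was -0.12 (SE 0.07; limma adjusted p = 0.902). At the upper end was Brd9, a bromodomain subunit of the non-canonical complex, described here after its values were seen because the ZnO arrays lay above the control arrays with both of its probes. The more intense probe read -0.23, -0.34, -0.24 and -0.34 in the controls and -0.22, -0.06 and -0.22 after ZnO, a log2 fold change of 0.12 (SE 0.07; limma adjusted p = 0.931). The second read -1.25, -1.19, -1.23 and -1.28 in the controls and -1.10, -0.93 and -1.03 after ZnO, a log2 fold change of 0.22 (SE 0.07; limma adjusted p = 0.737). The probes are not independent readings, since they were read on the same arrays and their targets also overlap by 13 bases. In the sequences below, taken 5′ to 3′ from the array design, capitals mark the shared bases.
Brd9 more intense probe, last 30 of 60 bases (rn4, chr1:30136773-30136832): taaaatgtctcaaaactGGATGTATTTGCA
Brd9 second probe, first 30 of 60 bases (rn4, chr1:30136726-30136785): GGATGTATTTGCAaaatacacaaaaatagg

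The remaining remodelers were ISWI, Smarcad1, Smarcal1, CHD and INO80. Of 16 tested genes of 18 on the array, 11 lay below 0 and 5 above, to be set beside the near-even split of all genes, with a median of -0.04 and a range of -0.42 to 0.20. The only tested ISWI ATPase was Smarca5, which encodes SNF2H, the motor of several nucleosome-spacing complexes. Its brightest probe read 0.68, 0.66, 0.55 and 0.53 in the controls and 0.40, 0.70 and 0.58 after ZnO. The ZnO values surrounded those of the controls, and the log2 fold change was -0.04 (SE 0.09; 95% interval -0.25 to 0.17; limma adjusted p = 0.999). A second probe read -2.13, -2.19, -2.46 and -2.19 in the controls and -2.16, -1.95 and -2.05 after ZnO, a log2 fold change of 0.19 (SE 0.10; limma adjusted p = 0.893). The estimates of the probes therefore had opposite signs, neither past the test. The remaining Smarca5 probe, near the start of the transcript, was not well above background on any array. The probes are shown in lower case, in order of distance from the transcript start, because what was read as Smarca5 depended on them.
Smarca5 remaining probe, from base 200, first 30 of 60 bases (rn4, chr19:29121710-29121769): ctcgcaacccggccctcgaagggggaacta
Smarca5 second probe, from base 2607, first 30 of 60 bases (rn4, chr19:29150239-29150688, thus spanning a splice junction): caaagaagaataagtatcaagaaagcacta
Smarca5 brightest probe, from base 4066, first 30 of 60 bases (rn4, chr19:29155192-29155251): atgtgcaaattgggtacataagcagttctc

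Smarcad1, an ATPase that helps to restore silent chromatin after replication, was read by 1 probe.
Smarcad1 probe, from base 4225, first 30 of 60 bases (rn4, chr4:94610263-94610322): gcctgtcagtctatattgctgtttttatta
It read -0.48, -0.47, -0.64 and -0.65 in the controls and -0.90, -0.42 and -0.49 after ZnO. ZnO replicate 1 was the lowest of all arrays and ZnO replicate 2 the highest, so that the groups overlapped. The log2 fold change was -0.04 (SE 0.13; 95% interval -0.34 to 0.25; limma adjusted p = 0.999), and it became 0.10 without ZnO replicate 1. Smarcal1, which anneals DNA strands at stalled replication forks, also had -0.04 and was picked after its value was seen.

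In the CHD family, chromodomain ATPases of which Chd1 and Chd2 follow elongating polymerase, 8 genes were tested. Chd1 had a log2 fold change of -0.07 (SE 0.10) and Chd2 of -0.11 (SE 0.11). The 4 probes of Chd2 ranged from -0.17 to 0.14, the widest range of any member. Chd4, the main ATPase of the NuRD deacetylase complex, read 2.89, 2.81, 2.69 and 2.94 in the controls and 2.81, 2.83 and 2.93 after ZnO. All ZnO values lay inside the control range, with a log2 fold change of 0.03 (SE 0.08; 95% interval -0.16 to 0.22). Chd5, its homologue best known from neurons, was dim, with -4.73, -4.90, -4.07 and -4.58 in the controls and -4.79, -4.54 and -5.64 after ZnO. ZnO replicate 3 alone was below the controls and 1 of 3 ZnO arrays was not well above background. The resulting log2 fold change of -0.42 (SE 0.29; limma adjusted p = 0.940) was the largest of any member in size and also the least precise. It rested on single arrays, being -0.09 without ZnO replicate 3, -0.64 without ZnO replicate 2 and -0.25 without control replicate 3, and it was -0.15 with normexp background correction. Chd8, a repressor of beta-catenin targets, read -2.01, -2.05, -2.23 and -2.18 in the controls and -2.49, -2.30 and -2.08 after ZnO. The groups overlapped and the log2 fold change was -0.17 (SE 0.11; limma adjusted p = 0.932).

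**Figure D2:**
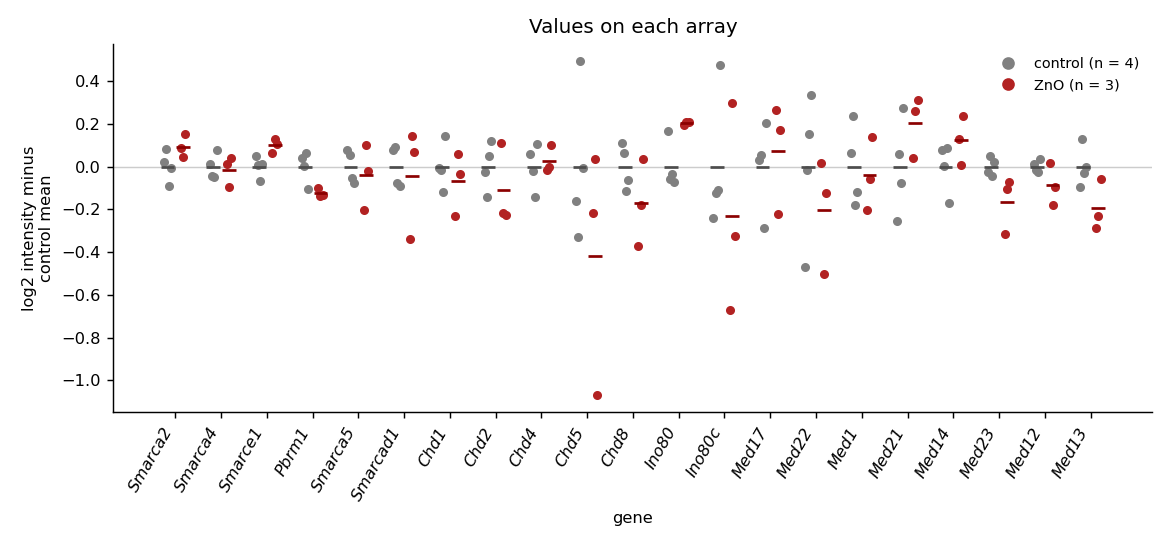
Log2 intensity minus the gene's control mean (y axis) on each of the 4 control arrays (grey) and 3 ZnO arrays (red) for the 21 named genes, with horizontal bars at group means. Groups are apart only in Smarce1, Ino80 and Med23, and single arrays set the spread of Chd5 and Ino80c.

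Of the INO80 complex, which slides nucleosomes and acts on the histone variant H2A.Z, all 5 genes on the array were tested. Ino80, the catalytic ATPase, was the single member gene under an unadjusted p of 0.05. Its brightest probe read -0.77, -0.99, -0.96 and -1.01 in the controls and -0.73, -0.72 and -0.72 after ZnO. The ZnO values were nearly equal and above every control, although control replicate 1 came close to them. The log2 fold change was 0.20 (SE 0.08; 95% interval 0.02 to 0.39; limma unadjusted p = 0.0341 and adjusted p = 0.823). The unadjusted call was not stable. It was lost on leaving out any array but control replicate 1, with a limma p of 0.0588 to 0.0834, and with the mean of both probes, where the log2 fold change was 0.15 and the limma p 0.0906. Without control replicate 1 the log2 fold change was 0.26 (limma unadjusted p = 0.00796 and adjusted p = 0.873). The second Ino80 probe read -1.67, -1.81, -1.76 and -1.79 in the controls and -1.61, -1.83 and -1.58 after ZnO. Here the groups overlapped, with ZnO replicate 2 the lowest of all arrays, and the log2 fold change was 0.09 (SE 0.08; limma adjusted p = 0.972). The probes are given as the basis of the only unadjusted call.
Ino80 second probe, from base 3647, first 30 of 60 bases (rn4, chr3:105908480-105908539): ggggcagacaaagcaggtcactgtgtaccg
Ino80 brightest probe, from base 5859, first 30 of 60 bases (rn4, chr3:105898375-105898434): gggaatcagaaaatgccaagccttttttct
Ino80c, a small subunit of the complex, was well above background on 2 of 3 ZnO arrays and had a log2 fold change of -0.23 (SE 0.25; limma adjusted p = 0.978). This value too rested on single arrays, being -0.01 without ZnO replicate 1, -0.50 without ZnO replicate 2 and -0.07 without control replicate 4. The other subunits ran from -0.06 to 0.06.

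Mediator transcripts were centred on 0. Of 30 subunit genes on the array 28 were tested, 13 above 0 and 15 below, with a median log2 fold change of -0.01 and a range of -0.20 to 0.20. In the head, 10 of 11 genes were tested, 5 on each side of 0, and the median was 0.01. Med17, the scaffold of the head, had a log2 fold change of 0.07 (SE 0.15), and its other probe -0.09. Med22, another head subunit, had -0.20 (SE 0.20; limma adjusted p = 0.973), with an SD of 0.34 between control arrays and 0.27 between ZnO arrays. Its probe was dim, with a control mean of -5.16. The log2 fold change of Med22 was -0.06 with normexp background correction and -0.36 without control replicate 1. In the middle, all 9 genes were tested, with a median of 0.02. Med1, the subunit bound by nuclear receptors, had -0.04 (SE 0.13). Med21, an essential subunit of the middle, read 0.56, 0.87, 0.74 and 1.08 in the controls and 0.85, 1.07 and 1.13 after ZnO. Its groups overlapped and the log2 fold change was 0.20 (SE 0.13; limma adjusted p = 0.932). For the brightest Med19 probe the spot on control replicate 2 was an outlier and left out, so that its -0.06 rests on 3 control arrays.

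The tail had the lowest median of the core modules, -0.11 over 6 genes with 4 below 0. The ZnO arrays did not share this. Relative to the control mean, the tail median was 0.10 on ZnO replicate 1, the highest of all arrays, and -0.15 and -0.11 on ZnO replicates 2 and 3. The architectural subunit of the tail, Med14, had a log2 fold change of 0.12 (SE 0.09; 95% interval -0.09 to 0.34). Med23, a tail subunit used by several signal-regulated activators, read -1.24, -1.17, -1.26 and -1.19 in the controls and -1.53, -1.32 and -1.29 after ZnO. Every ZnO value lay below every control value, and the log2 fold change was -0.16 (SE 0.08; limma adjusted p = 0.868). Its second probe read -3.75, -3.71, -3.70 and -3.53 in the controls and -3.89, -3.76 and -3.90 after ZnO. The groups were again apart, with a log2 fold change of -0.17 (SE 0.08; limma adjusted p = 0.867). Both Med23 probes were read on the same arrays, so the second is not an independent reading.

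The kinase module holds Med12 and Med13, or its paralogue Med13l, with the kinases Cdk8 or Cdk19 and cyclin C. Med13 tethers the module to the core of Mediator. Its brightest probe read 0.40, 0.63, 0.47 and 0.50 in the controls and 0.21, 0.27 and 0.44 after ZnO. ZnO replicates 1 and 2 were below all controls and ZnO replicate 3 was within their range. The log2 fold change was -0.19 (SE 0.09; 95% interval -0.40 to 0.01; limma unadjusted p = 0.0603 and adjusted p = 0.863). It stayed below 0 in all 22 alternative fits, from -0.26 to -0.04, with a limma unadjusted p of 0.0229 to 0.934. The second Med13 probe gave -0.03 (SE 0.12; limma adjusted p = 0.999), with -2.63, -2.86, -3.04 and -2.91 in the controls and -2.94, -3.00 and -2.72 after ZnO. Their sequences identify which stretch of Med13 gave which value.
Med13 second probe, from base 6054, first 30 of 60 bases (rn4, chr10:74504358-74504417): cggctactttcaacagaatcgcacgatgaa
Med13 brightest probe, from base 10416, first 30 of 60 bases (rn4, chr10:74494826-74494885): aaagaataaggaacaaacactattgctgcc
Med12, which activates the kinase, read 1.89, 1.86, 1.85 and 1.91 in the controls and 1.90, 1.70 and 1.78 after ZnO. ZnO replicates 2 and 3 were below the controls, and the log2 fold change was -0.09 (SE 0.07; limma adjusted p = 0.957). Med13l had 0.05 (SE 0.09).

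**Figure D3:**
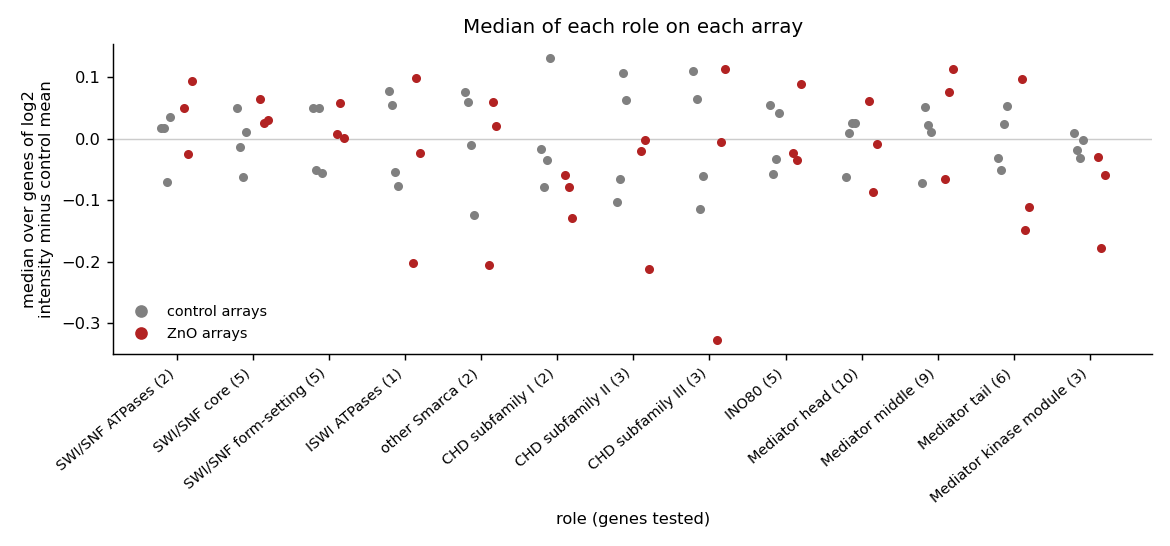
Median over the tested genes of each role (x axis, number of genes in brackets) of the log2 intensity minus the gene's control mean (y axis) on each control array (grey) and each ZnO array (red). The control and ZnO arrays overlap in all 13 roles, most narrowly in the Mediator kinase module.

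The arrays were compared over all members. The median over members of the value minus the control mean ran from -0.02 to 0.01 over the controls and from -0.01 to 0.03 over the exposed cultures. Percentile scaling brings such medians close to 0 by construction. ZnO replicate 1 had the lowest value in 12 of the 56 genes and the highest in 9, and control replicate 4 had the highest in 13. In some roles ZnO replicate 1 was the lowest of all arrays, with medians of -0.33 in CHD subfamily III and -0.20 both for Smarca5 and for the pair of Smarcad1 and Smarcal1. In others ZnO replicate 1 was the highest of all arrays, with medians of 0.10 in the Mediator tail and 0.06 both in the Mediator head and in the SWI/SNF core. Without it, 4 member genes were under an unadjusted p of 0.05 and 0 under an adjusted one. The share of all genes called in that fit is not given here, so the count cannot be read as particular to the members.

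Several probes were tested for 17 member genes. In 12 of them all probes had the same sign, in 13 the estimates lay within 0.2 of each other on the log2 scale, and the median range was 0.10. In 22 comparisons of a gene's brightest probe with another, the difference between the probes was set between groups by a two-sided exact permutation test over arrays, for which the smallest possible p is 0.0286. One Chd2 pair reached this minimum, the brightest probe at -0.11 and the probe from base 893 at 0.14. After Benjamini-Hochberg adjustment over the 22 comparisons the smallest p was 0.419, but with so few arrays a single comparison could not have passed, so that this says little about whether probes differed. Over all 78 member probes, 3 had an unadjusted limma p under 0.05, against 1189 of 20065 (5.93%). These were the brightest Ino80 probe, the second Brd9 probe and the second probe of Med20, a head subunit named after its value was seen, with a log2 fold change of -0.27 (SE 0.10; limma adjusted p = 0.823). The other Med20 probe gave -0.03 (SE 0.07). All ZnO arrays lay on one side of all controls for 7 member probes, against 1481 of 20065 (7.38%).

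**Figure D4:**
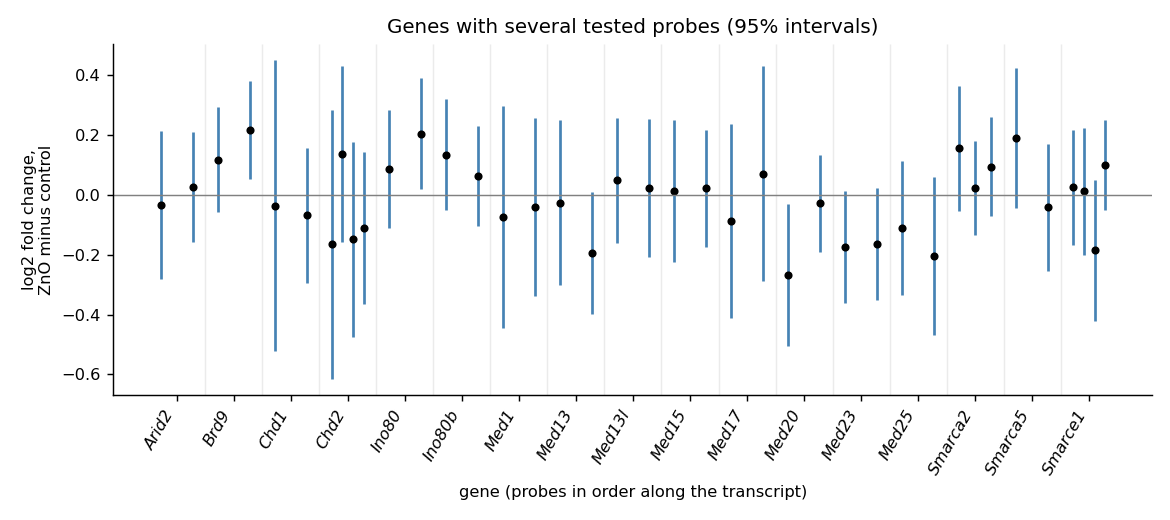
Log2 fold change (ZnO minus control, y axis) of every tested probe of the 17 member genes with several, in order along the transcript; points are estimates and bars 95% confidence intervals. Intervals of the same gene overlap throughout, and Chd2 has the widest range of estimates (0.30).

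Sequence features of the probes were set beside the response. The 78 tested probes had a GC content of at least 26.7% with a median of 43.3%, the median of all tested probes. As a description over probes, which share the same 7 arrays, Spearman's rho between GC content and log2 fold change was -0.22 in members and -0.12 over all 20065 probes. Probes starting up to base 2756.5 of their transcript, the members' median, had a median log2 fold change of 0.01 and those beyond it -0.03, against -0.00 and -0.02 over all probes split at the same base. Of the tested member probes, 8 crossed a splice junction in the array design and 3 were not placed.

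Beside the members stood a list of 65 further genes, partner subunits of the same complexes and, for 9 of them, other SNF2-type ATPases. Of these, 55 were tested and 0 were called at an adjusted p under 0.05, with a median log2 fold change of 0.02. In 8 of them, 6 higher and 2 lower, all ZnO arrays lay on one side of all controls, against the 7.46% of all genes. At an unadjusted p, 5 were called, to be read against the 5.87% of all genes and named after their values were seen. Above 0 were Tfpt, an INO80 subunit, with 0.33, Hells, an SNF2-type ATPase needed for DNA methylation, with 0.28, and Dpf1, a SWI/SNF subunit, with 0.22. Below 0 were Yeats4, a histone reader of SRCAP-type complexes, with -0.37 and Ttf2, a termination factor with an ATPase domain, with -0.21. All 3 partners in the Mediator kinase module, Cdk8, Cdk19 and Ccnc, had estimates below 0, from -0.20 to -0.03. Of 8 tested ISWI partners 7 lay above 0 (median 0.10), and of 10 NuRD partners 7 lay below (median -0.03), none of them past the unadjusted threshold and with no test of the counts.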

How the data were processed

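Total RNA of NR8383 cultures was labelled with Cy3 and hybridised to 1-colour rat arrays; the authors quantified the spots with Agilent Feature Extraction 11.0.1.1, per the file headers against rn4. The deposited intensity used here was that software's background-subtracted processed signal. The deposited value table held the scanner's median signal intensity, equal on all 62976 spots of every array and not normalised. The log2 intensity minus the array's 75th percentile was computed (the study's methods name a percentile normalisation but not which percentile), outlier spots were left out and spots of a probe averaged. Groups came from the labels (4 control, 3 ZnO). limma 3.58.1 (lmFit, eBayes; R 4.3.3) was fitted to all 20065 tested probes with Benjamini-Hochberg adjustment, checked on simulated data; intervals are at 95%. A gene took its brightest tested probe. For 62 member probes the accession and for 28 the symbol matched RefSeq (GRCr8), and for 1 neither did; only names were taken from it. Named genes were Smarca5, Smarcad1 and Med13, members under an unadjusted p of 0.05, the largest change of each role, and chosen ATPases and Mediator subunits. The members and lists were chosen with earlier results of these data known. Alternatives covered background correction, scaling, filters, variance model, probe choice, blocks and single arrays left out. The number of arrays limits the precision, and p-values measure the spread between cultures of 1 cell line.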

Additional observations from a re-analysis of the deposited data

Results flagged for a closer look

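Among the 21 named genes, 1 had a control array far from the others of its group: Ino80 on control replicate 1, at -0.77 where the other control arrays lay between -1.01 and -0.96. The gap to the nearest array was 0.83 of the whole control range. Chance marks about 1 in 20 such groups, and 21 were examined. The ZnO arrays read -0.74 to -0.72.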

How the results depend on the processing

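Under all 22 alternatives, 0 member genes passed an adjusted p of 0.05, so the absence of calls did not depend on them. The number under an unadjusted p of 0.05, 1 as reported, was 2 with quantile normalisation, with normexp background correction, with a trended and robust variance and with the mean of a gene's probes, 3 with normexp plus quantile normalisation, with the deposited table and without variance moderation, 0 with centring on the median or the spike-in spots and without the filter on dim probes, and 9 with array weights. With single arrays left out it ran from 0 to 4: 0 without control replicate 2, control replicate 3 or ZnO replicate 2, 2 without control replicate 4 or ZnO replicate 3, and 4 without ZnO replicate 1. The cause was not tested. The share of all genes called is given only for the fit reported above, so these counts cannot be read as particular to the members.

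The median log2 fold change of members became -0.042 with centring on the median and 0.15 on the spike-in spots, where the median of all probes itself stood at -0.04 and 0.14, and under the latter 0 intervals lay within 1.5-fold. That count and the fit with place within a line of the slide as a block were added after the data were seen. Small estimates changed sign, none past the test in either direction and with the cause not tested. With spike-in centring these were Chd1 (0.082), Chd2 (0.040), Med1 (0.11), Med12 (0.065), Pbrm1 (0.027), Smarca4 (0.14), Smarca5 (0.11) and Smarcad1 (0.11). With array weights they were Chd1 (0.0224), Ino80c (0.15), Med17 (-0.0862), Smarca5 (0.0145) and Smarcad1 (0.0485). With the mean of a gene's probes they were Med17 (-0.0081), Smarca5 (0.0743) and Smarce1 (-0.0123), with the deposited table Ino80c (0.0090) and Smarca4 (0.0029), with median centring Chd4 (-0.0095) and with normexp Smarcad1 (0.00077). Leaving out single arrays turned 7 genes. Chd1 then ran from -0.132 to 0.0126, Chd4 from -0.0196 to 0.0635, Med1 from -0.132 to 0.0405, Med17 from -0.0261 to 0.217, Smarca4 from -0.0402 to 0.0256, Smarca5 from -0.112 to 0.0380 and Smarcad1 from -0.135 to 0.105. The arrays whose omission turned a gene were ZnO replicate 1 (Chd1, Med1, Med17, Smarca5, Smarcad1), ZnO replicate 2 (Smarca4), ZnO replicate 3 (Chd4) and control replicates 2 (Med1), 3 (Chd4, Med17) and 4 (Smarca4).

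With the replicate number as a block, which in effect drops the unmatched control replicate 4, 1 gene was again under an unadjusted p of 0.05, but it was Med21 (log2 fold change 0.29) in place of Ino80 (0.18), and Smarca4 stood at 0.0121. Ino80 also lost its unadjusted call with median centring, spike-in centring, no filter on dim probes, the mean of its probes, and each single array left out except control replicate 1. Over all 22 alternatives its log2 fold change ran from 0.15 to 0.35 and its limma adjusted p from 0.337 to 1. Deviations of same-numbered arrays from their group means correlated at -0.09, 0.21 and -0.24, and those of different-numbered arrays at -0.41 to 0.33. With so few arrays per group, these values cannot show whether the numbers pair the cultures. Slide as a block was not run, since all arrays shared 1 slide. Dim probes limit Chd5 and Ino80c, each above background on 2 of 3 ZnO arrays, and Med22, dim though above background on all arrays.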
